A study of Mus musculus with 6 samples.

Results

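The mitosis and spindle genes are a set of 38 mouse genes that run cell division, from the kinase that starts mitosis to the proteins that part the daughter cells. The set was chosen by name, with earlier results of these data known. A gene was measured where a probe set of the array was annotated to its symbol alone. This held for 37 of the 38 genes, among 22180 gene symbols tested in all. Ccnb1, the gene of cyclin B1, had no such probe set and was not analysed here. None of the 37 genes had a second probe set of its own. No filter on dim genes was applied, so all 37 entered the test.

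The cells are labelled as NeuNDL-derived, NeuNDL being a constitutively active Neu (the rodent ErbB2 receptor), and were grown untreated in medium with serum and a mammary epithelial supplement. There were 3 arrays of SLK knockout cells and 3 arrays of SLK wild-type cells, and both genotypes are NeuNDL-transformed. The design text names passages 9, 19 and 29, but no sample label gives a passage, a clone or a line, so the p-values measure only the spread between these samples, which may be technical. Each array held 41345 log2 values, 1 per probe set, with medians of 3.93 to 3.97. Slk itself had log2 values of 7.14, 7.21 and 7.20 in knockout cells, against 8.21, 8.30 and 8.34 in wild-type cells, a difference of -1.10 (SE 0.056, limma with Benjamini-Hochberg adjustment, adjusted p = 0.0021). The labels do not say which part of Slk was deleted, so a remaining signal does not check the deletion of that part. Of 7 measured mammary epithelial markers, Krt14 (-0.66) and Cdh1 were lower in knockout cells past a limma adjusted p of 0.05. A higher mean there was found for 4 of the 7, by up to 0.15, and the median difference was 0.0019. At an unadjusted limma p under 0.05 stood 5 of the 7, against 10.2% of all symbols. The mean log2 value of the 7 was 7.94 to 7.95 on knockout arrays and 8.08 to 8.11 on wild-type arrays. The 6 measured leukocyte markers averaged 3.72 to 3.92 on knockout arrays and 3.65 to 3.80 on wild-type arrays. The 6 endothelial markers averaged 3.51 to 3.63 on knockout arrays and 3.54 to 3.63 on wild-type arrays. Of 7 fibroblast markers Pdgfrb (-0.67) was lower past the threshold, while 2 had a higher mean in knockout cells, by up to 0.43. The median difference was -0.19, and 5 of the 7 had an unadjusted limma p under 0.05. The mean of the 7 was 5.73 to 5.80 on knockout arrays and 5.89 to 5.94 on wild-type arrays. The part of these marker differences in the results was not tested.

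Mitosis is driven by the kinase Cdk1 bound to cyclins A and B, held back by the spindle assembly checkpoint until every chromosome is attached, and ended by the anaphase-promoting complex, which marks cyclins and securin for destruction. Most of these genes are transcribed late in the cell cycle, so their mRNA level in a culture follows how many of its cells are in G2 and mitosis, and they serve as proliferation markers in breast tumours. SLK, a Ste20-like serine/threonine kinase, is known to phosphorylate ezrin, radixin and moesin at the cortex of mitotic cells, which helps to orient the spindle, and its counterpart in Xenopus phosphorylates the polo-like kinase. The comparison therefore addresses whether the mRNA programme of dividing cells differed when SLK was lost.

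Promoters of the set are shown because the comparison is of transcripts and these genes are known to share promoter elements. The cell cycle genes homology region (CHR), with the letters TTTGAA, is the binding site of the MuvB complexes that repress these genes early in the cycle and activate them late. The CCAAT box is bound by the activator NF-Y. Of the 37 measured genes, 32 had a window in the RefSeq promoter table (GRCm38.p6) that runs from 250 bases before to 50 bases after the annotated start. Both motifs were searched on both strands (TTTGAA or TTCAAA, and CCAAT or ATTGG). A gene was counted where any of its windows held the motif, so the shares are per gene and not per promoter. A CHR was found for 25 of the 32 genes (78.1%), against 17.8% of the 16990 tested symbols with a window. A CCAAT box was found for 23 of the 32 (71.9%), against 41.6% of tested symbols. Both motifs stood together in a window for 21 of the 32 (65.6%), against 7.13% of tested symbols. A match is a run of letters and not a shown binding site. The last 120 bases before the start are printed for 6 of the genes that hold both motifs there. The sequences run 5′ to 3′ on the gene's strand, with CCAAT boxes and CHR elements in capitals. Cdk1 is the mitotic kinase, Cdc20 the activator of the anaphase-promoting complex, Espl1 the protease separase, Top2a the topoisomerase that untangles sister chromatids, Kif11 the motor that pushes the spindle poles apart, and Gpsm2 the cortical protein that orients the spindle.
Cdk1 (chr10:69352913-69353032, minus strand): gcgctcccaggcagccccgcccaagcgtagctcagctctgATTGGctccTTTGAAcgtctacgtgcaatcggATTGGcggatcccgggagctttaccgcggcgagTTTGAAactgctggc
Cdc20 (chr4:118437344-118437463, minus strand): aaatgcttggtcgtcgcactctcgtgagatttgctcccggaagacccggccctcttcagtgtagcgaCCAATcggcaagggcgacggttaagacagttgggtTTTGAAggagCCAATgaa
Espl1 (chr15:102296173-102296292, plus strand): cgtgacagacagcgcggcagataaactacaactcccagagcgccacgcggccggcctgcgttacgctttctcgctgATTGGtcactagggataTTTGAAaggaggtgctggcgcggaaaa
Top2a (chr11:99024190-99024309, minus strand): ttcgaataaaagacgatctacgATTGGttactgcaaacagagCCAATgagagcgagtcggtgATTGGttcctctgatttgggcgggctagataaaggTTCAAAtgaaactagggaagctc
Kif11 (chr19:37376262-37376381, plus strand): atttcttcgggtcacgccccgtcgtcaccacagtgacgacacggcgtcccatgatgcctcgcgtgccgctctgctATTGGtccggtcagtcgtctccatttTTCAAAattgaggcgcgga
Gpsm2 (chr3:108722300-108722419, minus strand): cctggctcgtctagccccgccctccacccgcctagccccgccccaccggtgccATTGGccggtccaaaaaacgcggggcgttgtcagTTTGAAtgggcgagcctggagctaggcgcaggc
In Espl1 the CCAAT box (here as ATTGG) begins 44 bases before the start and the CHR 27 bases before it. Gpsm2 has the same order with 67 and 33 bases, and Kif11 with 45 and 19 bases. The 21 genes with both motifs had a median log2 difference between knockout and wild-type cells of -0.0016 (range -0.062 to 0.13). The 11 genes without the pair had a median of 0.058 (range -0.071 to 0.12). The ranges overlapped almost wholly, while the median was lower with the pair, and this difference was not tested.

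Across the set, the differences in mitotic mRNA between knockout and wild-type cells were small and none was called. None of the 37 genes passed the limma test at an adjusted p of 0.05, in either direction. Over all symbols 0.437% passed, with 0.325% higher and 0.113% lower in knockout cells, so 0 of 37 is near the background share. At an unadjusted p under 0.05 stood 1 of the 37 genes, Espl1 (2.7% of the set), against 10.2% of all symbols. That count was 4 with an intensity trend and 4 without the dimmest 50% of symbols, and 0 with the replicate block, with median centring, and without knockout replicate 2 or 3 or wild-type replicate 1 or 2. The share of all symbols at this p was counted in the main fit only. Whether these other counts lie above or below background is therefore not known. The mean was higher in knockout cells for 20 genes (54.1%, against 51.5% of all symbols) and lower for 17. The median log2 difference was 0.017 over the set and 0.0038 over all symbols. The widest difference of any member, 0.13 for Espl1, is 1.09-fold, and 26.8% of all symbols differed by more than that.

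**Figure D1:**
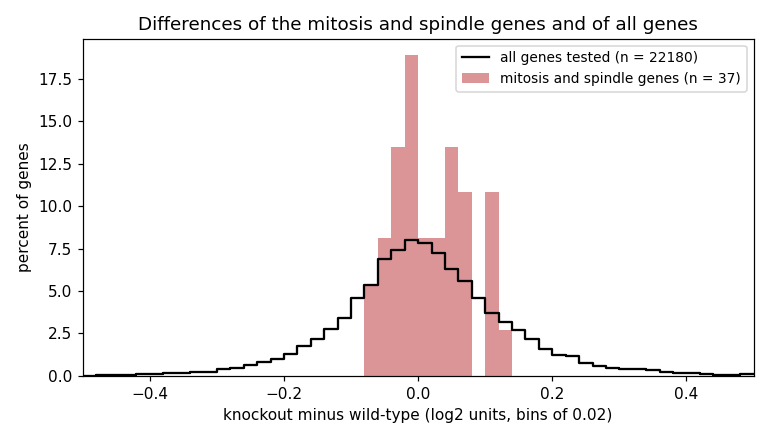
Distribution of log2 differences (knockout minus wild-type, horizontal axis, bins of 0.02) as percent of genes (vertical axis) for the 37 mitosis and spindle genes (bars) and all 22180 symbols tested (line); differences beyond 0.5 in size are not drawn. All 37 genes lie between -0.071 and 0.13, inside the spread of all symbols.

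These genes were measured with little scatter, and they are bright, as all 37 remained when the dimmest 50% of symbols were left out. The values given for all symbols throughout include dimmer ones, and symbols of like brightness were not compared. The SD within a genotype, pooled over both, was 0.013 to 0.071 for the members with a median of 0.039, against a median of 0.099 over all symbols. The whole range over all 6 arrays had a median of 0.13 for the members and 0.29 over all symbols. In bulk samples, fewer dividing cells and less mRNA per dividing cell cannot be told apart, and the values are those of the culture as a whole.

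How small a difference could have been seen was computed for each gene. With 3 arrays against 3, the largest unadjusted p that passed the adjustment was 0.000215, which corresponds to a moderated t of 7.32. Multiplied by each gene's SE (0.045 to 0.063), this gives the smallest log2 difference that the test would have called. It was 0.33 for Prc1, the lowest, 0.37 for the median member and 0.46 for Kif20b, the highest, or 1.26-fold, 1.29-fold and 1.38-fold. For the median of all symbols it was 0.56 (1.48-fold). The value depends on the setting. For the median member it was 0.16 (1.12-fold) when the variance prior followed intensity, 0.20 (1.15-fold) without the dimmest 50% of symbols, 1.12 with the replicate number as a block, and 0.63 to 0.71 when any single array was left out. No member was called in any of these fits.

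The 95% intervals of the differences, which are not adjusted for the number of genes, were narrower than that limit. Taken over the 37 genes they reached from -0.21 (Hmmr) to 0.26 (Kif2c), that is 1.16-fold lower to 1.20-fold higher. The interval contained 0 for 36 genes. For every one of the 37 genes the whole interval lay inside the smallest callable difference. The reach of an interval and that limit are both multiples of the gene's SE, so this adds little to the absence of a call. A difference of the size seen for Slk lies outside all 37 intervals. In the main fit, differences under 0.1 in size could not be told from none for any member. Intervals were not computed for the other settings.

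**Figure D2:**
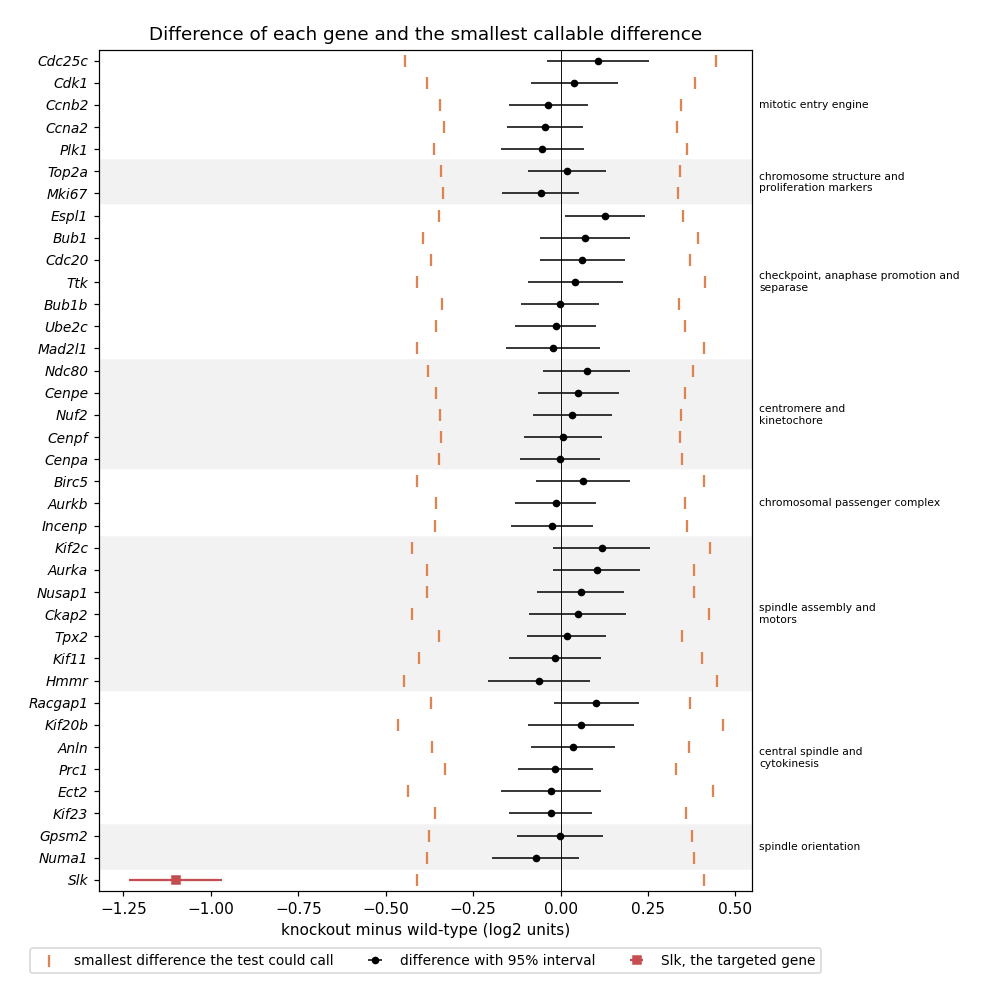
Log2 difference of each gene (knockout minus wild-type, horizontal axis) with its 95% interval (points and bars), the smallest difference the limma test could call (orange ticks), and Slk (red square), with genes grouped by role. Slk lies at -1.10, far outside its ticks at 0.41, while every member's interval stays between its own ticks. Bars and ticks are both multiples of the gene's SE.

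The engine of mitotic entry showed no call among 5 measured genes. Cdk1 had log2 values of 9.07, 9.02 and 9.02 in knockout cells, against 9.03, 9.03 and 8.93 in wild-type cells. The groups overlapped, and the difference was 0.040 (95% interval -0.086 to 0.16). Ccna2, the gene of cyclin A2, had 10.30, 10.29 and 10.33 in knockout cells, against 10.35, 10.35 and 10.35 in wild-type cells. All 3 Ccna2 values were lower in knockout cells, with a difference of -0.044 and an adjusted p of 0.798 by limma. Ccnb2, the gene of cyclin B2, had 9.43, 9.43 and 9.48 in knockout cells, against 9.51, 9.47 and 9.47 in wild-type cells. The values of Ccnb2 overlapped, with a difference of -0.035. Plk1, the polo-like kinase that acts with Cdk1 at entry and at the poles, had 10.04, 10.07 and 10.04 in knockout cells, against 10.05, 10.15 and 10.11 in wild-type cells. Its difference of -0.052 had a 95% interval of -0.17 to 0.067. Cdc25c, the phosphatase that activates Cdk1, had 7.72, 7.79 and 7.87 in knockout cells, against 7.70, 7.63 and 7.74 in wild-type cells. It was the most scattered of the 5, with overlapping groups and a difference of 0.11 (SE 0.061, limma adjusted p = 0.632).

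The proliferation markers used in tumour pathology did not separate the genotypes past the test. Mki67, which encodes the Ki-67 antigen that coats mitotic chromosomes, had 10.73, 10.71 and 10.71 in knockout cells, against 10.74, 10.78 and 10.79 in wild-type cells. All knockout values were lower, with a difference of -0.057 (95% interval -0.17 to 0.054, limma adjusted p = 0.742), where the smallest callable difference was 0.34. Top2a had 10.15, 10.18 and 10.13 in knockout cells, against 10.14, 10.11 and 10.16 in wild-type cells. The Top2a groups overlapped and the difference was 0.017 (95% interval -0.095 to 0.13).

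Among 7 genes of the checkpoint, the anaphase-promoting complex and separase, none passed, and 4 had a higher mean in knockout cells. Espl1, the gene of separase, which cuts cohesin at anaphase, had 7.90, 7.89 and 7.88 in knockout cells, against 7.75, 7.73 and 7.80 in wild-type cells. The knockout values were all higher, by 0.13 (SE 0.048, 95% interval 0.013 to 0.24). The unadjusted p of 0.034 became an adjusted p of 0.438 by limma, and the smallest callable difference for Espl1 was 0.35. Cdc20 had 8.73, 8.66 and 8.64 in knockout cells, against 8.58, 8.63 and 8.64 in wild-type cells. These groups did not overlap, by a margin smaller than the spread within either genotype, and the limma adjusted p was 0.741.

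The checkpoint kinases themselves overlapped between genotypes. Bub1 had 8.53, 8.53 and 8.62 in knockout cells, against 8.50, 8.53 and 8.44 in wild-type cells, a difference of 0.070. Bub1b, the gene of BubR1, which is part of the complex that inhibits Cdc20, averaged 8.19 ± 0.015 in knockout cells and 8.19 ± 0.026 in wild-type cells (SD, n = 3 each). Ttk, the gene of the kinase Mps1 at the top of the checkpoint, averaged 8.46 ± 0.043 in knockout cells and 8.42 ± 0.064 in wild-type cells (SD, n = 3 each). Mad2l1, the gene of the Cdc20 inhibitor Mad2, differed by -0.021 and Ube2c, the ubiquitin-conjugating enzyme of the anaphase-promoting complex, by -0.014.

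Of 5 centromere and kinetochore genes, which join chromosomes to spindle microtubules, 4 had a higher mean in knockout cells and none passed. Ndc80, the microtubule-binding subunit of the outer kinetochore, had 9.73, 9.73 and 9.65 in knockout cells, against 9.59, 9.65 and 9.65 in wild-type cells. Its groups did not overlap, although the lowest knockout value and the highest wild-type value both round to 9.65, and the difference was 0.074 (95% interval -0.049 to 0.20). Its partner Nuf2 averaged 9.60 ± 0.022 in knockout cells and 9.57 ± 0.027 in wild-type cells (SD, n = 3 each), a difference of 0.033. Cenpe, a kinesin that moves chromosomes to the spindle equator, had 9.75, 9.76 and 9.76 in knockout cells, against 9.66, 9.74 and 9.73 in wild-type cells. Its knockout values lay within 0.01 of each other and above all wild-type values, with a difference of 0.051 (limma adjusted p = 0.779). Cenpf, a large kinetochore protein, differed by 0.0073 and Cenpa, the histone H3 variant that marks centromeres, by -0.0016.

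The chromosomal passenger complex corrects faulty attachments and starts cytokinesis. Its kinase gene Aurkb had 9.33, 9.31 and 9.33 in knockout cells, against 9.33, 9.30 and 9.38 in wild-type cells. Its scaffold gene Incenp averaged 8.59 ± 0.043 in knockout cells and 8.61 ± 0.019 in wild-type cells (SD, n = 3 each). Birc5, the gene of survivin, had 8.18, 8.15 and 8.14 in knockout cells, against 8.10, 8.16 and 8.01 in wild-type cells. The groups overlapped for all 3 genes, with differences of -0.015 for Aurkb, -0.025 for Incenp and 0.064 for Birc5.

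The spindle assembly genes included the second and the fourth of the largest differences in the set, and none of the 7 passed. Kif2c, a kinesin that takes microtubules apart at centromeres, had 8.72, 8.84 and 8.86 in knockout cells, against 8.65, 8.72 and 8.70 in wild-type cells. Knockout values were all higher, by 0.12 (95% interval -0.022 to 0.26, limma adjusted p = 0.559), but knockout 1 lay closer to the wild-type arrays than to the other knockout arrays. Aurka, the kinase of spindle poles, had 8.99, 8.94 and 8.87 in knockout cells, against 8.82, 8.82 and 8.85 in wild-type cells. The groups did not overlap and differed by 0.10 (95% interval -0.021 to 0.23, limma adjusted p = 0.569). Tpx2, the activator of Aurka on spindle microtubules, had 9.87, 9.93 and 9.92 in knockout cells, against 9.89, 9.90 and 9.87 in wild-type cells, with overlap and a difference of 0.017.

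The other spindle genes overlapped between genotypes. Kif11 had 9.51, 9.45 and 9.49 in knockout cells, against 9.45, 9.57 and 9.47 in wild-type cells, a difference of -0.015. Hmmr, which encodes a spindle microtubule protein also known as a hyaluronan receptor, had 8.51, 8.56 and 8.63 in knockout cells, against 8.55, 8.70 and 8.64 in wild-type cells. The Hmmr difference was -0.062, and its lower interval bound of -0.21 was the lowest of the set. Nusap1, a microtubule-bundling protein, differed by 0.058 and Ckap2, another spindle microtubule protein, by 0.049.

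Of 6 central spindle and cytokinesis genes, 3 had a higher mean in knockout cells and none passed. Racgap1 and Kif23 encode the subunits of centralspindlin, which bundles microtubules between the separating chromosomes. Racgap1 had 9.53, 9.59 and 9.56 in knockout cells, against 9.51, 9.43 and 9.43 in wild-type cells. All knockout values were higher, by 0.10 (95% interval -0.019 to 0.22, limma adjusted p = 0.559). Kif23 had 9.31, 9.31 and 9.28 in knockout cells, against 9.28, 9.36 and 9.35 in wild-type cells, with overlap and a difference of -0.029. Ect2, which acts in cytokinesis, averaged 10.47 ± 0.058 in knockout cells and 10.50 ± 0.066 in wild-type cells (SD, n = 3 each). The subunits of centralspindlin thus had differences of opposite sign, neither past the test.

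Prc1, which bundles the microtubules of the central spindle, had the smallest SE of the set and values of 10.13, 10.09 and 10.10 in knockout cells, against 10.12, 10.12 and 10.13 in wild-type cells. Its 95% interval was -0.12 to 0.093. Anln, the actin-binding protein anillin of the contractile ring, averaged 10.53 ± 0.028 in knockout cells and 10.50 ± 0.044 in wild-type cells (SD, n = 3 each). Kif20b, a kinesin of late cytokinesis, had 9.06, 9.13 and 9.11 in knockout cells, against 8.96, 9.14 and 9.03 in wild-type cells. The wide spread of the Kif20b wild-type values, from 8.96 to 9.14, gave it the largest SE of the set, 0.063.

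Spindle orientation is the step closest to the known role of SLK at the mitotic cortex. Gpsm2, the gene of LGN, which holds the pulling machinery at the cortex, had 8.06, 7.95 and 7.98 in knockout cells, against 8.01, 7.99 and 8.00 in wild-type cells. The groups overlapped and the difference was -0.0026 (95% interval -0.13 to 0.12). Numa1, which links LGN to the motor dynein, had 8.74, 8.74 and 8.77 in knockout cells, against 8.88, 8.79 and 8.78 in wild-type cells. All knockout values were lower, with a difference of -0.071 (95% interval -0.20 to 0.054, limma adjusted p = 0.707), the largest negative difference of the set.

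**Figure D3:**
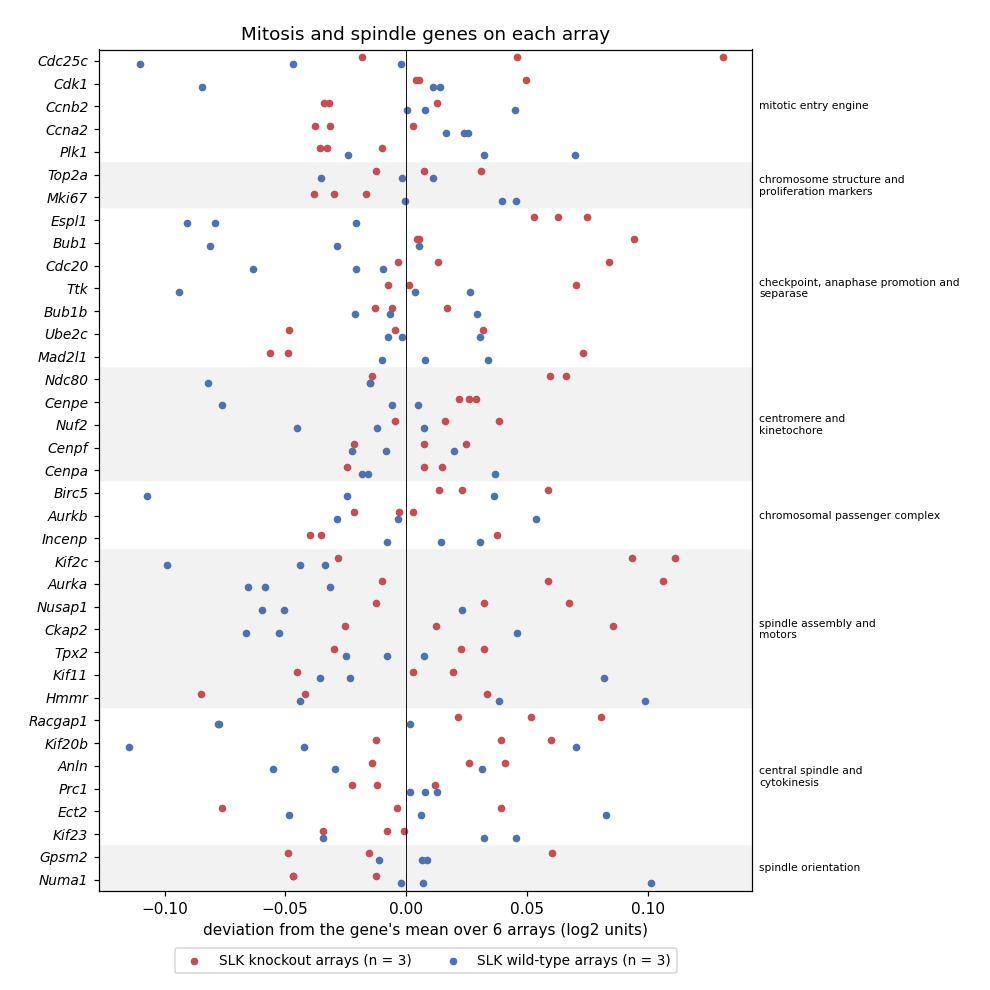
Deviation of each array's log2 value from the gene's mean over 6 arrays (horizontal axis) for the 37 genes, grouped by role; red points are the 3 SLK knockout arrays and blue points the 3 SLK wild-type arrays. All deviations lie between -0.11 and 0.13, and red and blue points overlap for 27 of the 37 genes.

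Separation of the arrays was counted over the set. The genotypes did not overlap for 10 of the 37 genes (27.0%), against 16.9% of all symbols. In knockout cells 7 were higher (Espl1, Kif2c, Aurka, Racgap1, Ndc80, Cdc20 and Cenpe), where 8.79% of all symbols were, and 3 were lower (Ccna2, Mki67 and Numa1), where 8.1% were. The differences of these 10 genes were 0.044 to 0.13 in size. Whether 10 is more than the background share gives was not tested, and the members share the arrays and are not independent of each other.

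The shift of the set as a whole was small on every array. The median deviation of the 37 genes from their own means was, on knockout arrays 1 to 3, 0.0074, -0.0057 and 0.0041. On wild-type arrays 1 to 3 it was -0.0079, 0.0072 and -0.010. The knockout and wild-type medians overlapped. The mean deviations were 0.011, 0.0045 and 0.015 on knockout arrays and -0.015, 0.0028 and -0.018 on wild-type arrays, which did not overlap. Over all symbols the same medians lay between -0.013 and 0.0096, a range of similar width. Above their own mean stood 21, 18 and 22 of the 37 genes on the knockout arrays, and 15, 22 and 11 on the wild-type arrays, so that wild-type 3 had the fewest.

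Other genes of the division cycle, in 8 lists that hold 169 measured genes, gave no call either (0.437% of all symbols were called). Their median log2 difference was 0.0040, and 91 of the 169 had a higher mean in knockout cells, as did 51.5% of all symbols. An unadjusted p under 0.05 was found for 4 of the 169, against 10.2% of all symbols. None of 29 genes of S phase and DNA replication passed (median 0.0016), and the gene with the smallest p was Rrm2, a subunit of ribonucleotide reductase, at 0.16 (SE 0.073, limma adjusted p = 0.518). None passed among 15 genes of the factors that transcribe mitotic genes (median -0.024), where the smallest p was that of the pocket protein gene Rbl1 at 0.12 (SE 0.055, limma adjusted p = 0.516). The 31 other kinetochore and checkpoint genes had a median of -0.0018, and the 30 other spindle motors and microtubule proteins one of -0.0058, with none past the test.

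Chromosome structure and proteolysis gave the same count of 0. The 17 condensin and cohesin genes had a median of 0.033, with the smallest p for the condensin subunit gene Ncaph2 at 0.14 (SE 0.058, limma adjusted p = 0.492). The 17 genes of the anaphase-promoting complex had a median of 0.032, with Cdc16, one of its subunits, at -0.11 (SE 0.050, limma adjusted p = 0.523). The 18 other mitotic regulators had a median of -0.010, with Ensa, a protein that inhibits the phosphatase opposing Cdk1, at 0.077 (limma adjusted p = 0.65). Among 12 genes of spindle orientation and of SLK's cortical substrates the median was 0.027, and none passed. At an unadjusted p under 0.05 stood 1 of these 12, against 10.2% of all symbols. It was Gnai1, which encodes a G protein subunit that binds LGN at the cortex.

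Gnai1 had the widest difference of all 169 genes. Its log2 values were 5.39, 5.38 and 5.47 in knockout cells, against 4.95, 4.51 and 4.92 in wild-type cells. The groups did not overlap, and wild-type 2 was the lowest. The difference was 0.62 (SE 0.12, limma adjusted p = 0.129), below the 0.90 that the test could have called for this gene.

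**Figure D4:**
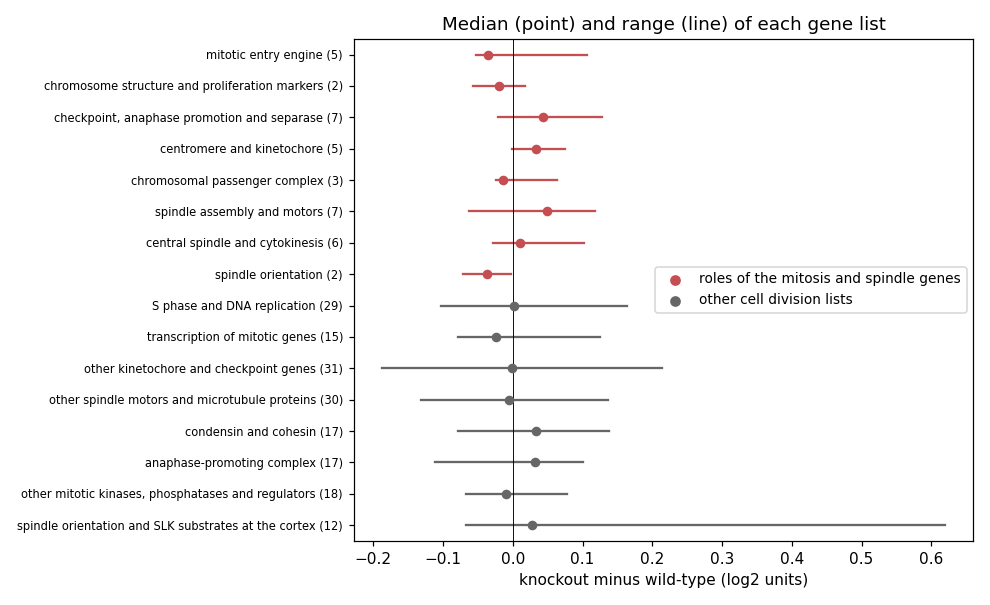
Median (point) and lowest to highest (line) log2 difference, knockout minus wild-type (horizontal axis), for the 8 roles of the mitosis and spindle genes (red) and the 8 other lists of cell division genes (grey), with the number of measured genes in brackets. All medians lie between -0.037 and 0.049; the long line in the last list ends at Gnai1.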

How the data were processed

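Total RNA was biotin-labelled and hybridised to 6 one-colour arrays. The authors deposited 1 table of log2 values per probe set, made with Affymetrix Expression Console 1.4.1.46 per the submitters' processing notes. The labels state neither background correction nor normalization nor log base; base 2 was taken because the highest value, 12.4, is too high for other bases on a 16-bit scanner. Such values can understate fold changes.

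Probe sets were named through the platform annotation (23521 had 1 symbol, 1814 several, 16010 none), and the brightest by mean over the 6 arrays was kept per symbol. Of those with several symbols, 3 name a member and were left out. Samples were grouped by title and compared with limma 3.58.1 under R 4.3.3 (lmFit and eBayes, no trend or covariate, two-sided, Benjamini-Hochberg over 22180 symbols, threshold 0.05). Every adjusted p is from this fit or, where named, from an alternative. The code was also run on simulated arrays, with added shifts larger than any difference of a member. That run does not bear on differences as small as those of the members. The number of arrays limits the precision. The members and lists were chosen with earlier results of these data known. The text names all members, Slk and, from each cell division list, genes past the threshold or else the one with the smallest p; Krt14, Cdh1 and Pdgfrb were added after their values were seen. Alternatives were a replicate block, quantile normalization, centring on medians, omission of the dimmest 30% or 50% of symbols, means of probe sets, an intensity trend, array weights, and leaving out each array.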

Additional observations from a re-analysis of the deposited data

How the results depend on the processing

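No member was called in any of the 14 alternatives, all of which tested all 37, and the lowest adjusted p of a member was 0.15, without the dimmest 50% of symbols. The sign of 24 members held throughout. The other 13, none differing by more than 0.035 in the main analysis, changed sign in at least 1 alternative, 8 of them without knockout replicate 2 and 5 with median centring. The median log2 difference of the members became -0.020 with median centring (that of all symbols -0.033) and 0.0071 to 0.022 with 1 array left out. Slk kept its call throughout. The number of symbols called moved from 97 to 206 and 341 without the dimmest 30% and 50%, to 441 with an intensity trend, to 6 with the replicate block and to 16 to 28 with 1 array left out. The smallest callable difference of the median member was 0.27, 0.20, 0.16, 1.12 and 0.63 to 0.71 in the same settings. Fewer symbols tested, or fewer residual degrees of freedom, are part of some of these settings by construction, and other causes were not tested. Same-numbered arrays of both genotypes correlated in their deviations from the group means with r of 0.044, 0.017 and -0.066, so the numbers were not taken as pairs; with the replicate block the adjusted p of Slk was 0.0464 and the lowest of a member 0.558.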

Other observations

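Outside the 37 genes, Cenpo, a subunit of the inner kinetochore, had log2 values of 5.94, 6.17 and 5.91 in knockout cells, against 5.83, 5.75 and 5.80 in wild-type cells, a difference of 0.21 (SE 0.080, limma adjusted p = 0.438). Kif20a, a kinesin of the central spindle, had 10.37, 10.35 and 10.37 in knockout cells, against 10.22, 10.23 and 10.23 in wild-type cells. The groups did not overlap for either gene. The Kif20a difference of 0.14 (limma adjusted p = 0.376) was below the smallest callable one of the main fit, 0.33. The unadjusted 95% intervals, 0.028 to 0.24 for Kif20a and 0.022 to 0.41 for Cenpo, did not contain 0. Each gene was named because it had the smallest p of its list.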
